A study of Mus musculus with 257 samples.

Results

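The 10 libraries described here are the 5 cerebella labelled BD-FL-FL and the 5 labelled WT at postnatal day 13 (P13) in the normal background, out of 257 libraries in the study. They were chosen by their labels alone. The study sequenced RNA of mouse cerebellum and of medulloblastoma, a tumour of the hindbrain, with and without floxed Ddx3x, in a normal background and in backgrounds with activated Wnt or Shh signalling. The question of this comparison is what differs in the normal cerebellum of females with both copies of Ddx3x floxed.

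The letter B in a group name marks Blbp-Cre, the recombinase driven by the promoter of Fabp7 (Blbp), and the letter D marks floxed Ddx3x. FL/FL cerebella come from females with 2 floxed copies. Females with 1 floxed and 1 intact copy (BD-FLPlus, 4 libraries) and males with 1 floxed copy (BD-FLY, 5 libraries) entered the same fit, which makes 19 libraries. The WT label names no Cre and no sex. The Shh-model groups carry a Ptch1 allele and Blbp-Cre, as BPtch without and BPtchD-FLFL with floxed Ddx3x. The Wnt-model groups carry alleles of Ctnnb1 and Pik3ca and Blbp-Cre, as BCP without and BDCP-FLFL with floxed Ddx3x. All are labelled cerebellum and P13 unless another age is named, but the titles of BPtch replicates 3 and 4 give day 14, and nothing in the labels says that animals were pooled.

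DDX3X is an ATP-dependent RNA helicase that helps long or structured messenger RNAs into translation and takes part in innate immune signalling and stress granules. The Blbp promoter is active in radial glia and other hindbrain progenitors, so descendants such as granule neurons, astroglia and Bergmann glia can carry the recombined allele, whereas microglia, which come from the yolk sac, do not arise from these progenitors. At this age granule neurons are still being born and migrating inward, Purkinje cells are extending their dendrites and oligodendrocytes are myelinating. When neurons or glia are damaged, microglia turn on genes of phagocytosis and lipid handling and astroglia turn on Gfap.

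Ddx3x itself (ENSMUSG00000000787, chromosome X, 13280970 to 13294052, plus strand, GRCm38) was not lower in the libraries labelled FL/FL. Its level was 368, 362, 300.2, 348 and 326 CPM (counts per 1e+06 counts of the library) in WT replicates 1 to 5 and 315, 321, 335, 329 and 354 CPM in FL/FL replicates 1 to 5. The groups overlapped, with means of 341 ± 27.9 and 331 ± 14.8 CPM (SD, n = 5 each) and a log2 fold change of -0.02 ± 0.13 (SE; adjusted p = 0.98, edgeR quasi-likelihood test with Benjamini-Hochberg adjustment over all genes tested, as for every adjusted p below). BD-FLY males held 111 to 187 CPM, below all WT libraries, and FL/FL exceeded them by 1.23 on the log2 scale (adjusted p = 0.000225). The whole-gene count was thus lower in the floxed males but stayed at the WT level in FL/FL. As a group, BD-FLPlus females did not hold more of it than FL/FL. BD-FLPlus replicates 1 to 4 had 5243, 6304, 3156 and 5115 counts of Ddx3x, out of 18782524, 18449549, 11577406 and 17061180. The labels do not say which exons are floxed, so this count alone does not settle the deletion in FL/FL. FL/FL below means libraries so labelled. Fabp7 was not called (log2 fold change -0.49, adjusted p = 0.616).

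Sex was not balanced. Xist, the RNA of the inactive X chromosome, was at 1101 to 3329 CPM in the 5 FL/FL libraries and at 2750 CPM in WT replicate 2, but at 2.46 to 4.05 CPM in the other 4 WT libraries. Ddx3y, the Y-linked paralog of Ddx3x, showed the reverse, with 45.0 to 75.3 CPM in those 4 WT libraries, 0 in WT replicate 2 and at most 0.107 CPM in FL/FL. Totals ran from 14314358 to 22687524 counts and the mitochondrial share from 0.759% to 3.52%.

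WT replicate 3 stood apart from the other cerebella. Its median correlation with the other P13 libraries of this background was 0.924, against 0.959 for FL/FL replicate 1 and 0.972 to 0.983 for the rest. Gabra6, a GABA receptor subunit of mature granule neurons, was at 551, 471, 3.94, 339 and 302 CPM in WT 1 to 5 and at 202, 314, 553, 342 and 292 CPM in FL/FL 1 to 5. Zic1, a granule lineage factor, was at 41.6 CPM in WT replicate 3 against 567 to 1555 CPM in the other 9 libraries, and the Purkinje gene Pcp2 was at 3.39 CPM there against 133 to 233 CPM in the other WT libraries. Lhx9 and Tcf7l2, which are abundant in thalamus and midbrain, were highest in that library at 145 and 336 CPM, and reached 62.8 and 160 CPM in WT replicate 5 and 39.9 and 95.5 CPM in FL/FL replicate 1. Slc17a6, a glutamate transporter of the same regions, was at 618 CPM in WT replicate 3, 285 CPM in WT replicate 5 and 261 CPM in FL/FL replicate 1. Slc17a6 and Lhx9 also stand in the marker list of cerebellar nuclei and unipolar brush cells, so they do not mark neighbouring regions only. The summed level of 15 markers of midbrain and pons was 311.8 to 978 CPM in WT and 332 to 722 CPM in FL/FL, with none at 0. Counts are therefore given below with and without WT replicate 3. WT replicate 5 stayed in those counts.

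**Figure D1:**
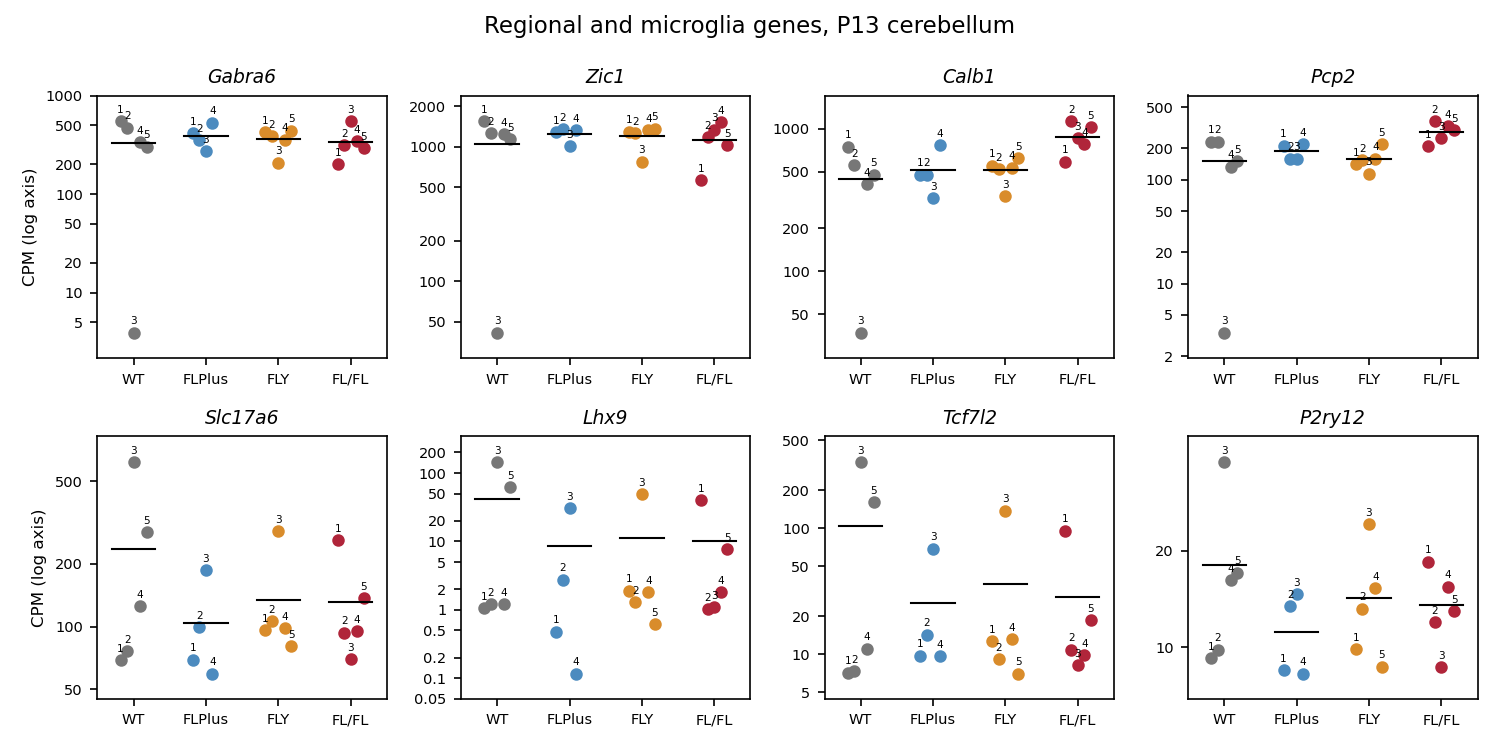
CPM (log axis) of 3 granule neuron or Purkinje genes and Zic1 (Gabra6, Zic1, Calb1, Pcp2), 3 genes abundant in neighbouring regions (Slc17a6, Lhx9, Tcf7l2) and the microglial gene P2ry12 in the 19 libraries of P13, by genotype. Each point is a library with its replicate number and the line is the group mean; WT replicate 3 holds 3.94 CPM of Gabra6 and 145 CPM of Lhx9.

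Of 18679 genes tested, 86 (0.46%) were called between FL/FL and WT at an adjusted p under 0.05, 64 higher (0.343%) and 22 lower (0.118%) in FL/FL, and 2090 had an unadjusted p under 0.05. Of the 86, 68 had no overlap between the groups, against 290 of all genes tested (1.55%). All FL/FL libraries lay above all WT libraries for 54 of the 64 rises, against 173 of all genes (0.926%). The smallest p-values belonged to 4 Y-linked genes, then to Cd109, Gpnmb and Fcgr2b, and 5 of the 22 falls are Y-linked. Without WT replicate 3, 64 genes were called (0.344%; 44 higher, 0.236%, and 20 lower, 0.107%), 49 of them shared with the 86. Without that library and FL/FL replicate 1, 79 were called (0.426%), 47 of them shared (60 higher, 0.324%, and 19 lower, 0.103%). The count ran from 24 without FL/FL replicate 5 to 192 without FL/FL replicate 3, and was 30 without FL/FL replicate 2, 36, 53 and 40 without WT replicates 1, 4 and 5. With the Y-linked level as a covariate no gene was called (1205 at an unadjusted p under 0.05), and all 33 called genes that the text follows through the alternatives kept their direction. Of the 86, 21 were called whichever of the 10 libraries was left out, 13 of them higher and 8 lower, 4 of the latter Y-linked.

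Gpnmb and Cd109 rose most among the called genes whose log2 CPM averaged at least 1. Among the scarcer genes Prl2c3, of the placental prolactin family, had a log2 fold change of 4.14 (adjusted p = 0.0163), and in BD-FLPlus its value against WT was 3.58 without a call (adjusted p = 0.138). Prl2c3 passed the low-count filter only through the FL/FL group, with 10 to 18 counts per library. WT libraries held 0 to 2 counts, BD-FLPlus 3 to 21 and BD-FLY 0 to 4. Gpnmb (chromosome 6, 49036546 to 49070929, plus strand) encodes a membrane glycoprotein of lysosome-rich phagocytes. It was at 0.939, 0.503, 0.929, 0.636 and 0.653 CPM in WT 1 to 5 and at 30.1, 11.1, 1.17, 7.82 and 12.6 CPM in FL/FL 1 to 5. All FL/FL libraries lay above all WT libraries, although FL/FL replicate 3 lay just above them. Gpnmb rose by 4.09 ± 0.54 on the log2 scale (adjusted p = 0.00146), on 68 counts in the WT group and 1229 in FL/FL.

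Cd109 (chromosome 9, 78615546 to 78716253, plus strand), a surface protein that binds TGF-beta and dampens its signalling, was at 1.17, 1.26, 2.52, 2.65 and 2.41 CPM in WT and at 50.9, 18.9, 4.61, 16.8 and 45.6 CPM in FL/FL. It rose by 3.79 ± 0.49 (adjusted p = 0.00119), with no overlap and again with FL/FL replicate 3 the lowest of its group. Itgax, the CD11c integrin of activated microglia and dendritic cells, had 14 counts in all WT libraries together and 115 in FL/FL. Its levels were 0.0503 to 0.352 CPM in WT and 0.826 to 1.89 CPM in FL/FL, a rise of 3.15 ± 0.51 (adjusted p = 0.0101). Itgax passed the low-count filter only through the FL/FL group, where it had 12 to 29 counts per library against 1 to 8 in the WT, BD-FLPlus and BD-FLY libraries. These 3 genes were called in all 10 fits that left out 1 library, with adjusted p up to 0.0116 for Gpnmb, 0.00706 for Cd109 and 0.0385 for Itgax. In a fit of the 10 libraries alone, without BD-FLPlus and BD-FLY, Itgax was still called but Gpnmb and Cd109 were not.

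Receptors for IgG rose with them. Fcgr2b, the inhibitory Fc receptor, was at 2.99, 3.57, 2.296, 3.02 and 2.71 CPM in WT and at 13.7, 6.57, 5.64, 6.08 and 10.6 CPM in FL/FL, with no overlap. It rose by 1.57 ± 0.24 (adjusted p = 0.00828) and was called in all 10 fits. Fcgr2b overlaps the predicted gene Gm38204, and the strand setting of the counting is not given in the sources used here. Fcgr3, an activating Fc receptor, was at 2.17, 2.57, 3.50, 3.13 and 1.66 CPM in WT and at 22.7, 6.30, 3.51, 6.50 and 12.3 CPM in FL/FL. The WT maximum in replicate 3 and the FL/FL minimum in replicate 3 nearly touched, and the rise was 1.99 ± 0.37 (adjusted p = 0.0223).

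Lgals3, the galectin of activated phagocytes, rose by 1.59 ± 0.28 (adjusted p = 0.0184), from 0.875 to 1.80 CPM in WT to 2.13 to 6.30 CPM in FL/FL, with no overlap. Fcgr3 lost its call without FL/FL replicate 5, WT replicate 1 or WT replicate 5 (adjusted p up to 0.0682), and Lgals3 without FL/FL replicate 5 or WT replicate 1 (up to 0.0648). Lgals3 was also not called without WT replicate 3 and FL/FL replicate 1 together, at 1.26. Trem2, a lipid receptor of microglia, had a log2 fold change of 1.09 and was not called (adjusted p = 0.0977). Further genes of phagocytosis and lipid handling did not all rise. Without WT replicate 3, Apoe, Axl and Cd9 had log2 fold changes of 0.04, -0.19 and -0.12. In the same fit Spp1, Clec7a, Cd68, Lpl and Ctsd were at 1.80, 1.30, 0.96, 0.73 and 0.56. None of these was called, but the protease gene Ctss was (1.68, adjusted p = 0.0489).

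Markers of microglia as a class were not called. Of 14 tested, 0 were called and 12 had a positive log2 fold change, with a median of 0.49 against -0.0061 over all genes tested; without WT replicate 3 the median was 0.81. Their summed level was 124, 134, 360, 204 and 205 CPM in WT and 579, 296, 125, 222 and 325 CPM in FL/FL, so the groups overlapped, and none was at 0. C1qa, a subunit of complement C1q, was at 9.27, 7.85, 16.6, 10.4 and 10.3 CPM in WT and at 59.3, 21.2, 7.84, 20.3 and 26.1 CPM in FL/FL (1.31, adjusted p = 0.127). P2ry12 and Tmem119, markers of resting microglia, had log2 fold changes of -0.42 and -0.38 (adjusted p = 0.778 and 0.841), with WT replicate 3 highest of its group for P2ry12 at 37.9 CPM. Without WT replicate 3 these values were 0.08 and 0.01 (adjusted p = 0.975 and 0.999). In bulk tissue, more microglia and more RNA of these genes per microglial cell cannot be told apart.

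Markers of macrophages at the borders of the brain, such as Mrc1 and Cd163, summed to 17.4 to 29.6 CPM in WT and 15.99 to 26.3 CPM in FL/FL, with 0 of 7 called, a median of -0.23 and none at 0. Markers of T and NK cells summed to 0.411 to 1.86 CPM in WT and 0.138 to 1.76 CPM in FL/FL, and Gzma had no count in any of the 10 libraries. Haemoglobin and other blood cell genes summed to 291 to 510 CPM in WT and 162 to 412 CPM in FL/FL, with 0 of 6 called. None of these sums was higher in FL/FL than the WT maximum.

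Some genes of astroglial reactivity and complement rose too. Of 11 genes tested in a list of complement and reactive glia, 5 rose (C4b, Gfap, Osmr, Cd44 and Cp), none fell, and the median was 1.08, beside 0.343% of all genes tested that rose; without WT replicate 3, 4 rose and the median was 1.02. Cd44, the hyaluronan receptor of reactive astroglia, was at 6.10, 6.74, 5.52, 9.27 and 6.88 CPM in WT and at 60.6, 14.4, 8.67, 15.9 and 29.0 CPM in FL/FL. Only FL/FL replicate 3 lay within the WT range, and the rise was 1.91 ± 0.36 (adjusted p = 0.0249). C4b, complement component 4, was at 2.88, 3.57, 13.01, 6.41 and 10.4 CPM in WT and at 33.3, 31.8, 14.3, 22.6 and 42.5 CPM in FL/FL, with no overlap. C4b rose by 2.01 ± 0.39 (adjusted p = 0.0316) and by 2.35 without WT replicate 3, but its near copy C4a can share reads with it. Astroglial markers as a class did not rise, and Gfap was the only one called. Without WT replicate 3, Aqp4, Gja1 and Aldoc had log2 fold changes of -0.46, -0.31 and 0.69. Vim, an intermediate filament gene, was at 0.24, and at 0.06 without FL/FL replicate 1 as well.

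Gfap, the intermediate filament of astroglia (chromosome 11, 102887336 to 102900912, minus strand), was at 192, 302, 204, 252.8 and 259 CPM in WT and at 1957, 470, 300, 360 and 1055 CPM in FL/FL. FL/FL replicates 1 and 5 were far above the rest and replicate 3 lay within the WT range. The rise was 1.79 ± 0.37 (adjusted p = 0.0403), the call held only in the fits without FL/FL replicate 2, 3 or 4, and the log2 fold change was 1.24 without FL/FL replicate 1. Without WT replicate 3 it was 1.76 (adjusted p = 0.069), and without both libraries 1.20 (adjusted p = 0.0862). FL/FL replicates 1 and 5 also held the highest sums of the midbrain and pons markers in their group, 636 and 722 CPM against 332 to 465 CPM in replicates 2 to 4. Their summed immediate early genes, which neurons and glia turn on within minutes of a stimulus, were at 497 and 251 CPM against 157.5 to 180 CPM in the other FL/FL libraries and 137 to 217 CPM in WT. None of the 11 immediate early genes was called and none was at 0, and Fosb, one of them, had 1847 and 255 counts in FL/FL 1 and 5 and 2 to 14 in FL/FL 2 to 4. Outside FL/FL, the midbrain and pons sum was above 600 CPM in WT replicates 3 and 4 (978 and 703 CPM), BD-FLPlus replicate 3 (650.0 CPM) and BD-FLY replicate 3 (716 CPM), where Gfap was at 204, 252.8, 347 and 350 CPM. This sum did not follow Lhx9 and Tcf7l2 in every library. WT replicate 4 had 23 and 208 counts of them, and WT replicate 5, with a sum of 466 CPM, had 1249 and 3185. The part of neighbouring tissue and of immediate early activity in the Gfap values was not tested.

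Ceruloplasmin (Cp), a copper oxidase that astroglia release, rose by 1.08 ± 0.20 (adjusted p = 0.0205), from 9.29 to 14.8 CPM in WT to 15.3 to 33.2 CPM in FL/FL, with no overlap. Osmr, the oncostatin M receptor, was at 5.46, 4.33, 7.54, 5.78 and 7.14 CPM in WT and at 33.3, 13.1, 6.74, 10.7 and 15.7 CPM in FL/FL, a rise of 1.40 ± 0.29 (adjusted p = 0.0403). Il1r1, the receptor of interleukin 1, rose by 1.10 ± 0.23 (adjusted p = 0.0401) and Angpt2, a vascular ligand, by 1.28 ± 0.21 (adjusted p = 0.0112). Serpina3n, an acute-phase protease inhibitor, was at 6.68 to 30.5 CPM in WT and at 334, 18.4, 11.1, 17.5 and 173 CPM in FL/FL (2.75, adjusted p = 0.152). Lcn2, another acute-phase gene, was too low to be tested, with 6 counts in the WT group and 169 in FL/FL, nearly all in FL/FL replicates 1 and 5 at 4.14 and 4.33 CPM.

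Leaving out FL/FL replicate 5 or WT replicate 1 ended the calls of Cd44, C4b, Gfap, Osmr and Il1r1. Leaving out FL/FL replicate 1 ended those of Gfap, Osmr (0.96) and Il1r1 (0.88), leaving out FL/FL replicate 2 those of C4b, Cp, Osmr and Il1r1, leaving out WT replicate 2 or 4 those of C4b, Gfap, Osmr and Il1r1, and leaving out WT replicate 5 those of Cd44, Gfap, Osmr and Il1r1. Cp was also lost without FL/FL replicate 5, and Cd44 without WT replicate 3 and FL/FL replicate 1 together (1.30). The adjusted p in these fits reached 0.117 for C4b, 0.0742 for Cd44, 0.0675 for Cp and 0.123 for Gfap. Angpt2 was called in all 10 fits (adjusted p up to 0.0385).

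**Figure D2:**
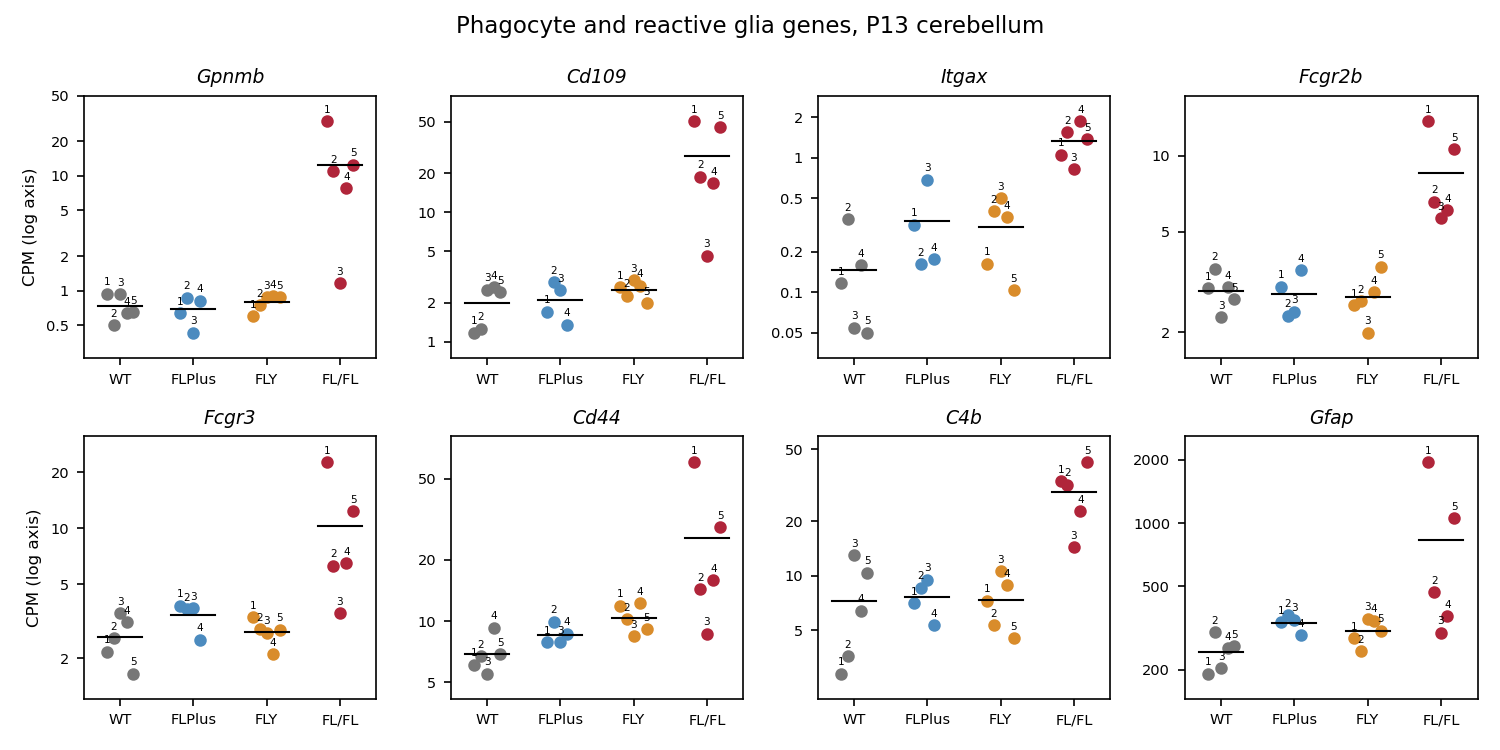
CPM (log axis) of 5 phagocyte genes or genes that rose with them (Gpnmb, Cd109, Itgax, Fcgr2b, Fcgr3) and 3 glial reactivity genes (Cd44, C4b, Gfap) in WT, BD-FLPlus, BD-FLY and FL/FL cerebella of P13. Each point is a library with its replicate number and the line is the group mean; FL/FL replicate 1 is the highest of its group for Gpnmb at 30.1 CPM and for Gfap at 1957 CPM, and replicate 3 the lowest for both.

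Interferon-stimulated genes leaned upward but few were called. Of 34 antiviral effectors tested 1 rose, Trim30a, and 32 had positive log2 fold changes with a median of 0.88. For this and the next lists, the share of all genes tested that rose was 0.343%. Of 14 class I MHC and antigen presentation genes 3 rose, H2-K1, H2-Q4 and Nlrc5, with a median of 0.73. None of the listed 13 interferon-induced GTPases (median 0.50), 15 nucleic acid sensors (median 0.17) and 18 interferon ligands, receptors and signalling genes (median 0.26) was called. Aim2, a DNA sensor that stands in the inflammasome list, rose by 1.66 ± 0.35 (adjusted p = 0.0403), from 0.528 to 1.66 CPM in WT to 2.68 to 4.28 CPM in FL/FL, with 1 of 9 genes of that list called. BD-FLPlus held 2.33 to 5.27 CPM of Aim2, and the call held only without FL/FL replicate 3 or WT replicate 2 (adjusted p up to 0.123). The HIN200 gene cluster, which includes Aim2, summed to 71.9 CPM in WT replicate 2 and at most 3.97 CPM in the other WT libraries, and to 52.4 to 152 CPM in FL/FL. Without WT replicate 3 the effectors had a median of 1.12, and Ifih1, the double-stranded RNA sensor MDA5 (1.46, adjusted p = 0.0155), Irgm2, an interferon-induced GTPase (1.33, adjusted p = 0.0189), Parp14 (1.47, adjusted p = 0.0303) and the interferon transcription factor Irf7 (2.10, adjusted p = 0.0496) were called.

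Trim30a, a TRIM protein that restrains inflammatory signalling, was at 2.11, 1.06, 1.37, 1.59 and 1.05 CPM in WT and at 3.70, 3.31, 2.54, 4.47 and 3.73 CPM in FL/FL. The groups did not overlap and the rise was 1.32 ± 0.27 (adjusted p = 0.0403). Nlrc5, the transactivator of class I MHC genes, was at 0.411, 0.201, 0.492, 0.159 and 0.101 CPM in WT and at 2.16, 1.23, 1.38, 1.54 and 1.44 CPM in FL/FL, a rise of 2.50 ± 0.53 (adjusted p = 0.041) with no overlap. H2-K1, a classical class I heavy chain, was at 8.51, 13.3, 9.51, 12.98 and 13.4 CPM in WT and at 32.9, 20.6, 13.1, 19.9 and 18.5 CPM in FL/FL, a rise of 0.88 ± 0.19 (adjusted p = 0.0456). Only FL/FL replicate 3 lay within the WT range of H2-K1. H2-K1 lost its call in 9 of 10 fits that left out a library, all but the one without FL/FL replicate 3. Trim30a kept its call only without FL/FL replicate 3 or WT replicate 1, and Nlrc5 only without FL/FL replicate 3 or WT replicate 3 (adjusted p up to 0.117 and 0.118).

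Motifs known from interferon and NF-kappaB target genes were searched in the promoters of the called genes, and the windows around the matches in Trim30a and H2-K1 are shown because both genes rose. The promoters are the RefSeq windows of GRCm38.p6, 250 bases before to 50 after the start, and 61 of the 86 called genes have an entry. The interferon response element core (GAAA, then any 2 bases, then GAAA), searched on both strands, is in 1131 of 32851 promoters (3.44%) and in 3 of the 61, Trim30a, Unc80, a channel subunit gene that rose by 0.71, and Acsbg1, which fell. The gamma-activated site (TTC, then any 3 bases, then GAA) is in 2726 promoters (8.3%) and in 3 of the 61, Gfap, Prl2c3 and Acsbg1. The class I kappaB site (GGGG followed directly by ATTCCC), also on both strands, is in 35 promoters (0.107%) and in 1 of the 61. The shares of all promoters count windows, whereas the 61 count genes, some of which have several windows, so the shares are not directly comparable. The Trim30a window is chr7:104465194-104465269 and the H2-K1 window chr17:34000409-34000498, both on the minus strand, and capitals mark the motif (read on the other strand for Trim30a).
Trim30a: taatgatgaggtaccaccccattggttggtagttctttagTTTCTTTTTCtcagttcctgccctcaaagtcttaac
H2-K1: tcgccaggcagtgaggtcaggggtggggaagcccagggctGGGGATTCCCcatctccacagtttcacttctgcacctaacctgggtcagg
A match describes the letters of the window and is not a measured site.

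Among neuronal genes, the clearest rise was Pcp4, a calmodulin regulator of Purkinje cells. Pcp4 was at 89.4, 111, 36.9, 81.1 and 84.0 CPM in WT and at 184, 218, 211, 180 and 191 CPM in FL/FL, with no overlap, a rise of 1.32 ± 0.23 (adjusted p = 0.0169) that was called in all 10 fits. Pcp4 overlaps Igsf5. It was the only one of 15 Purkinje markers called, beside 0.343% of all genes tested that rose, and their median was 0.99, or 0.71 without WT replicate 3. The summed Purkinje level was 1405 to 6240 CPM in WT and 5756 to 10660 CPM in FL/FL, and granule neuron markers summed to 1848 to 11500 CPM and 5492 to 9802 CPM, with 0 of 16 called. Both WT minima were replicate 3, and the other WT libraries held 3651 to 6240 and 7280 to 11500 CPM. FL/FL replicate 1 had the granule sum of 5492 CPM, below these WT libraries. Mybpc1, a myosin binding protein, was at 24.9, 22.4, 2.79, 27.4 and 15.3 CPM in WT and at 40.9, 122, 68.5, 85.2 and 126 CPM in FL/FL, a rise of 2.30 ± 0.42 (adjusted p = 0.0205) that was lost without FL/FL replicate 2, FL/FL replicate 5 or WT replicate 5. BD-FLPlus held 34.9 to 60.6 CPM of Mybpc1, also above the WT maximum, and differed from WT by 1.36 without a call (adjusted p = 0.49).

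Kit, the receptor tyrosine kinase of molecular layer interneurons, was lower in FL/FL at the edge of the threshold. Its level was 174, 153, 94.3, 149 and 150 CPM in WT and 78.8, 52.3, 127, 72.9 and 50.7 CPM in FL/FL. Each group held 1 library within the range of the other, WT replicate 3 and FL/FL replicate 3, and the log2 fold change was -0.91 ± 0.20 (adjusted p = 0.0538). Without WT replicate 3 Kit fell by 1.01 (adjusted p = 0.0305), and it was called without FL/FL replicate 3, falling by 1.16. Against BD-FLY males, who held 150 to 191 CPM, Kit fell by 1.19 (adjusted p = 0.0244), and against BD-FLPlus females the value was -1.16 (adjusted p = 0.0843). The other inhibitory interneuron markers were not called, and the list's median was -0.12 over 10 genes.

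Dhcr7, Acsbg1 and Pxmp4 fell, each by about the same small amount. Dhcr7, the last enzyme of cholesterol synthesis, was at 66.6, 59.5, 61.2, 73.0 and 61.0 CPM in WT and at 43.9, 44.3, 49.0, 52.0 and 36.5 CPM in FL/FL. The groups did not overlap and Dhcr7 fell by 0.50 ± 0.09 (adjusted p = 0.0205). Acsbg1, a long-chain acyl-CoA synthetase of glia, was at 200.2 to 256 CPM in WT and 140 to 172 CPM in FL/FL, and fell by 0.51 ± 0.11 (adjusted p = 0.0405). Pxmp4, a peroxisomal membrane protein, fell by 0.53 ± 0.11 (adjusted p = 0.0403), from 16.7 to 26.0 CPM in WT to 13.8 to 18.2 CPM in FL/FL, so its groups overlapped. None of 12 other myelin lipid and sterol synthesis genes was called, all 12 had negative log2 fold changes, and the median was -0.27, or -0.25 without WT replicate 3. Hmgcs1 and Idi1, enzymes early in the sterol pathway, were at -0.46 and -0.43. Oligodendrocyte markers had a median of -0.23 over 14 genes, with 0 called.

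Emp2, a tetraspan membrane protein, was at 61.5, 58.2, 63.1, 63.8 and 68.0 CPM in WT and at 34.6, 39.9, 42.8, 49.0 and 33.1 CPM in FL/FL, and fell by 0.64 ± 0.12 (adjusted p = 0.0249). Grik3, a kainate receptor subunit, was at 88.3, 88.0, 146, 104 and 115 CPM in WT and at 72.7, 55.05, 78.4, 56.6 and 61.9 CPM in FL/FL, and fell by 0.73 ± 0.15 (adjusted p = 0.0401). Pla2g4e (chromosome 2, 120166412 to 120245335, minus strand), a phospholipase that makes N-acyl phospholipids, was at 33.3, 37.7, 48.5, 29.1 and 37.9 CPM in WT and at 11.6, 11.3, 15.3, 8.87 and 20.1 CPM in FL/FL. None of the 3 overlapped between the groups, and Pla2g4e fell most, by 1.45 ± 0.23 (adjusted p = 0.00905), and was called in all 10 fits. Dhcr7 was not called without FL/FL replicate 2, FL/FL replicate 5 or WT replicate 1, nor Emp2 without these or WT replicate 5 (adjusted p up to 0.0675 and 0.0992). Acsbg1 was called in 2 fits and Grik3 and Pxmp4 in 3, and WT replicate 3 was the highest of all for Acsbg1 and Grik3, whose values without it were -0.42 and -0.58 and not called.

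**Figure D3:**
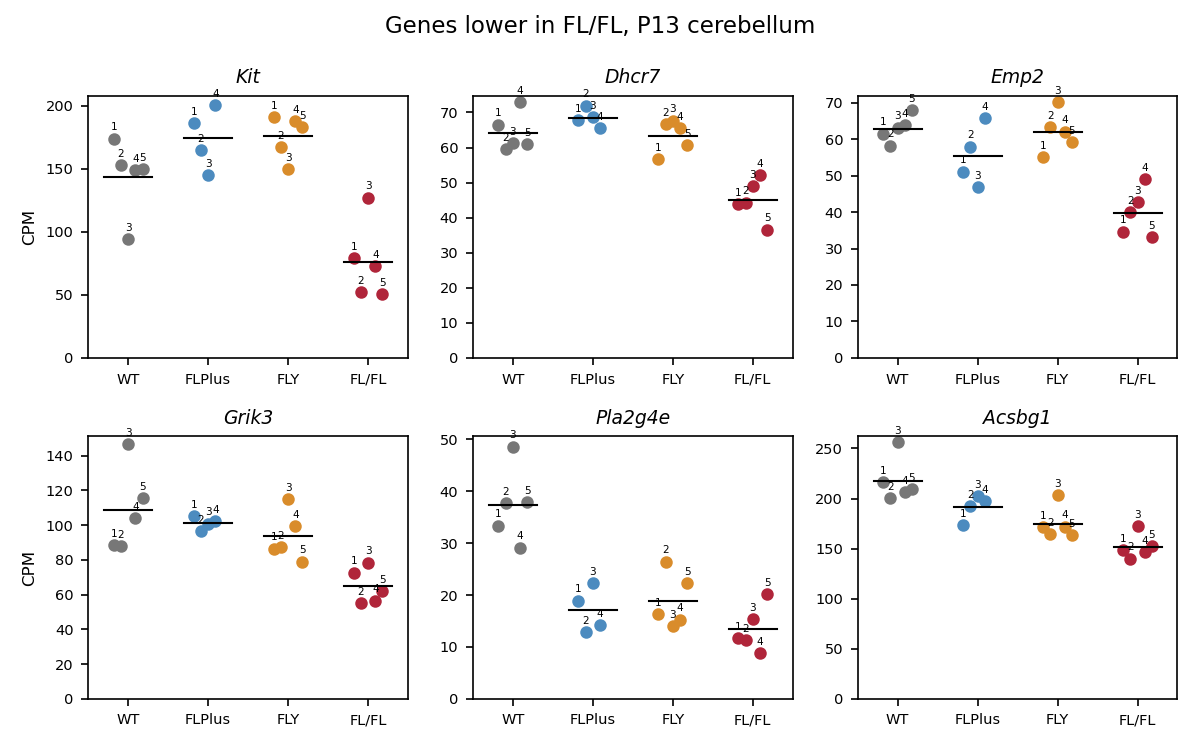
CPM (linear axis from 0) of Kit, Dhcr7, Emp2, Grik3, Pla2g4e and Acsbg1 in WT, BD-FLPlus, BD-FLY and FL/FL cerebella of P13, each point a library with its replicate number and the line the group mean. FL/FL lay below WT in every library for all but Kit, and BD-FLPlus and BD-FLY cerebella were also low in Pla2g4e.

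Some of the called genes differed from WT in BD-FLPlus as well. Plac9a, a small secreted protein on chromosome 14, was at 0.235, 0.604, 0.492, 0.583 and 0.301 CPM in WT and at 3.75, 6.03, 4.20, 5.24 and 3.01 CPM in FL/FL, a rise of 3.32 ± 0.54 (adjusted p = 0.0101). In BD-FLPlus it was at 6.57 to 7.83 CPM, a log2 fold change of 3.94 against WT (adjusted p = 0.00388), and in BD-FLY the value was 3.26 (adjusted p = 0.027), with BD-FLY replicate 2 at the WT level of 0.201 CPM. Tmem254b, on the same chromosome (26203369 to 26207041), rose by 1.51 ± 0.26 (adjusted p = 0.0169), with 5.52 to 9.48 CPM in WT and 18.8 to 24.2 CPM in FL/FL. The predicted gene Gm6356, also on chromosome 14 (6965449 to 6973818), had 408 counts in the WT group and 3 in FL/FL. Of 662 genes tested on chromosome 14, 11 were called (1.66%), and near copies of Plac9a, Tmem254b and Gm6356 can share their reads. In BD-FLPlus against WT, which shares the WT libraries, Pcp4 and Pla2g4e had log2 fold changes of 1.11 and -1.18 without a call (adjusted p = 0.154 and 0.116).

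Against BD-FLPlus, the other female group, 4 genes were called, all higher in FL/FL (0.0214% of 18679, with 1401 at an unadjusted p under 0.05). They were Gpnmb, Cd109, Fcgr2b and Tmem106a, the last with 1.70 (adjusted p = 0.0338) here and 0.62 against WT. Gpnmb was at 0.432 to 0.867 CPM in the 4 BD-FLPlus libraries, and FL/FL exceeded it by 4.18 ± 0.60 (adjusted p = 0.0141). For Cd109 the values were 1.35 to 2.87 CPM and 3.76 (adjusted p = 0.0141), and for Fcgr2b the log2 fold change was 1.63 (adjusted p = 0.0332). Against BD-FLY males 14 genes were called (0.075%; 7 higher and 7 lower, 0.0375% each), with Gpnmb at 3.98 (adjusted p = 0.002), Cd109 at 3.48 (adjusted p = 0.00228) and Fcgr2b at 1.66 (adjusted p = 0.00356). These contrasts share the FL/FL libraries with the contrast against WT. Leaving out any 1 BD-FLPlus library left no call against that group, and leaving out FL/FL replicate 3 gave 77.

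Gfap, C4b and Cd44 were also lower in BD-FLPlus and BD-FLY than in FL/FL, without a call. Gfap was at 292 to 363 CPM in BD-FLPlus and 245 to 350 CPM in BD-FLY, and FL/FL differed from them by 1.35 and 1.46 (adjusted p = 0.297 and 0.167). C4b was at 5.33 to 9.50 and 4.52 to 10.6 CPM, with differences of 1.99 and 2.01 (adjusted p = 0.151 and 0.0591). The same values against WT, which share libraries with these, are 0.44 and 0.34 for Gfap and 0.01 and 0.00 for C4b in BD-FLPlus and BD-FLY. In BD-FLPlus against WT 15 genes were called (0.0803%), 7 higher (0.0375%) and 8 lower (0.0428%). In BD-FLY against WT 15 were called (0.0803%), 13 higher (0.0696%) and 2 lower (0.0107%).

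The same genotype step in the Shh-model background, made with other libraries and other controls, gave 1209 called genes of 19386 (6.24%), 802 higher (4.14%) and 407 lower (2.1%). The Y-linked genes Ddx3y and Kdm5d were lower there too, with log2 fold changes of -8.39 and -8.86. Sex was thus not balanced in this contrast either, and its part in the rises shared between the backgrounds was not tested. Gpnmb was at 1.17 ± 0.674 CPM in BPtch and 16.9 ± 12.1 CPM in BPtchD-FLFL (SD, n = 5 each), a log2 fold change of 3.83 (adjusted p = 0.000947). Cd109 was at 2.27 ± 0.923 and 72.7 ± 53.7 CPM (5.06, adjusted p = 4.88e-05), and Gfap at 261 ± 54.0 and 1148 ± 722 CPM (2.15, adjusted p = 0.00127). Kit fell by 1.43 (adjusted p = 9.93e-06), from 155 ± 21.5 to 57.8 ± 10.7 CPM. Leaving Y-linked genes and Xist out, 29 of the 64 rises of the normal background were also rises there (45.3% of these and 3.74% of the 775 of the Shh background), against 4.17% of all 18581 genes tested in both. None of the 64 was a fall there. Of 16 falls tested in both, 2 were falls there (12.5%, and 0.5% of 400), Pxmp4 and Grik3, against 2.15% of all genes. Without WT replicate 3 the rises shared were 24 of 44 (54.5%). Without the BPtch libraries titled day 14, 434 genes were called in the Shh background, 348 higher and 86 lower, and 23 of the 64 rises were shared (35.9%, against 1.8% of all genes tested in both). Gpnmb, Cd109, Gfap and Kit were still called there, at 4.39, 4.77, 1.98 and -1.28.

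The difference of the FL/FL step between the normal and Shh backgrounds, tested as an interaction, was called for 1 gene of 20354 (0.00491%, Gm6356), with 1366 at an unadjusted p under 0.05 in edgeR and 6 called by DESeq2. In the Shh background complement and reactive glia had 9 of 12 rises (median 1.68), antiviral effectors 19 of 36 (1.63), class I and antigen presentation genes 9 (0.97) and microglial markers 11 of 14 (1.31), and sterol synthesis genes were again all negative (median -0.30). Without the BPtch libraries titled day 14 the first 4 of these lists had 4, 4, 4 and 10 rises, in the same order, with medians of 1.54, 1.68, 0.91 and 1.18. Of all genes tested in the Shh background, 4.14% rose, or 1.75% without those libraries. Whether lists differ between the backgrounds was not tested beyond the single genes.

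In the Wnt-model background the step called 5 genes of 19167 (0.0261%), all Y-linked and lower. Gpnmb was at 3.68 ± 3.52 CPM in BCP and 3.68 ± 3.96 CPM in BDCP-FLFL, Cd109 at 5.83 ± 3.60 and 7.11 ± 5.99 CPM, and Gfap at 351 ± 127 and 385 ± 132 CPM. Kit was at 48.5 ± 7.75 CPM in BCP and 95.5 ± 48.7 CPM in BDCP-FLFL, so the BCP controls were already below the WT level of 144 ± 29.5 CPM. The difference between the normal and Wnt backgrounds was called for 554 genes of 20354 (2.72%), higher in the normal background for 363 (1.78%) and lower for 191 (0.938%). Among them were Gpnmb (4.12 ± 0.95, adjusted p = 0.015), Cd109 (3.53, adjusted p = 0.0106), Itgax (3.49, adjusted p = 0.0125), Cd44 (2.33) and Kit (-1.90), as well as Mybpc1 (4.40), whose level in BCP was 427 ± 84.7 CPM. Sterol synthesis genes had positive log2 fold changes in 12 of 12 cases in the Wnt background, with a median of 0.26 and no call.

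**Figure D4:**
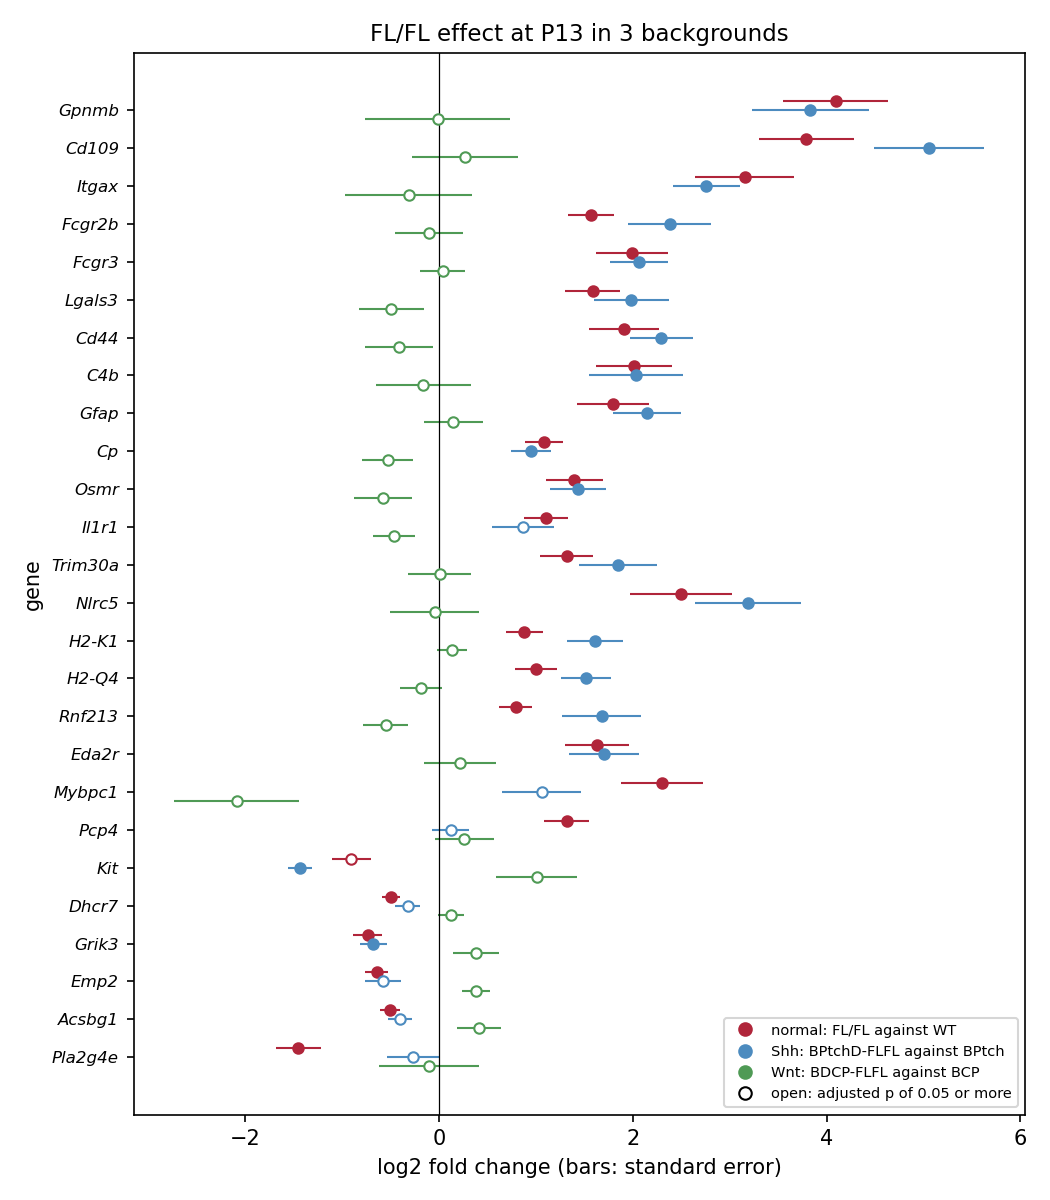
Log2 fold change (horizontal axis) with its standard error of 26 genes for the FL/FL step in the normal, Shh-model and Wnt-model backgrounds of P13, filled where the adjusted p was under 0.05. Gpnmb lay at 4.09 in the normal and 3.83 in the Shh-model background.

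**Figure D5:**
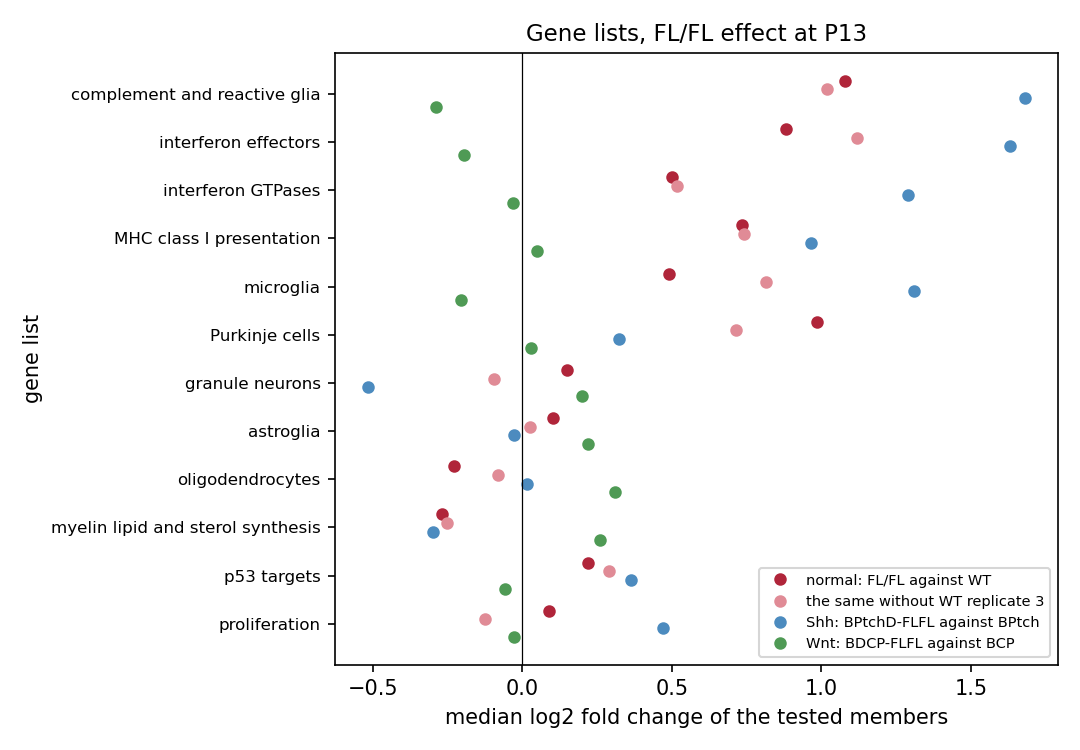
Median log2 fold change of the tested members of 12 gene lists for the FL/FL step in the normal background, the same without WT replicate 3, and the Shh-model and Wnt-model backgrounds of P13. Antiviral effectors had medians of 0.88, 1.12, 1.63 and -0.20 in this order, and sterol synthesis genes -0.27, -0.25, -0.30 and 0.26.

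At other ages of the normal background the pattern was partial. At P5 Gpnmb was at 3.56 ± 2.04 CPM in WT and 15.5 ± 8.14 CPM in FL/FL, whereas Gfap was at 250 ± 87.2 and 151 ± 40.6 CPM and C4b at 14.3 ± 3.27 and 11.97 ± 1.83 CPM (SD, n = 5 each). The FL/FL step differed between P13 and P5 in 63 genes of 20572 (0.306%), with 47 higher (0.228%) and 16 lower (0.0778%) at P13, among them Gfap (2.47, adjusted p = 0.023), C4b (2.20, adjusted p = 0.0218), Mybpc1 (2.62, adjusted p = 0.0192) and the DNA sensor Aim2 (2.20, adjusted p = 0.0227), both also above the WT range in the BD-FLPlus libraries of P13. From day 30 on Gpnmb was at 2.20 ± 0.357 CPM in WT and 16.8 ± 17.1 CPM in FL/FL, and Gfap at 117 ± 25.8 and 447 ± 514 CPM. That age differed from P13 in 61 genes (0.297%), with 18 higher (0.0875%) and 43 lower (0.209%) at P13, among them Pcp4 (1.35, adjusted p = 0.023), Plac9a (3.19, adjusted p = 0.0325) and Tmem254b (1.69, adjusted p = 0.0286).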

How the data were processed

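The deposited table holds the authors' raw counts per gene for all 257 libraries, with 32075 gene IDs, of which 31759 matched a symbol in GENCODE M21 (GRCm38). HISAT2, featureCounts and GRCm38 are the aligner, counter and build per the submitters' processing notes. Their versions, the annotation and the strand setting were not given in the sources used here. Groups follow the genotype and age labels. Nothing in the labels states a batch, and p-values reflect only how much the libraries of a group vary.

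The test was edgeR 4.0.16 under R 4.3.3 (TMM, filterByExpr with minimum count 10 and total 15, quasi-likelihood F-test, two-sided, Benjamini-Hochberg adjustment). The 4 genotypes of P13 shared 1 fit of 19 libraries. Called means an adjusted p under 0.05. Interactions were fitted over the 12 cerebellar groups of P13 or the 16 normal-background groups of all ages. CPM are counts per 1e+06 of the library total. Errors after ± are SDs for levels and SEs for log2 fold changes.

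The libraries, gene lists and genes were chosen with earlier results of these data known. The rule names Ddx3x, Ddx3y, Fabp7, Xist, the 12 largest rises and falls whose mean log2 CPM reached 1, without predicted genes, every called list member or else up to 4 with the smallest p, and the 4 called genes with the smallest p. Other genes (Gabra6, Zic1, Pcp2, Lhx9, Tcf7l2, Slc17a6, Trem2, Lcn2, Gm6356, Tmem106a, Unc80, Prl2c3, Apoe, Axl, Cd9, Spp1, Clec7a, Cd68, Lpl, Ctsd, Ctss and further called genes) were added after their values were seen. Replicate numbers did not pair the libraries: correlations of same-numbered deviations ran from -0.51 to 0.34. No libraries agreed within sampling noise. On simulated data for this comparison, over 18679 genes with 50 changed per fold size, 83.7% of log2 changes of -2, 50.0% of -1, 60.0% of 1 and 94.0% of 2 were called. Alternatives were DESeq2 1.42.0, its size factors, no filter, other sets of libraries in the fit, the replicate number or the listing run (1 pass through the alphabet in the deposited order of library titles) as a block, a Y-linked covariate, and leaving out libraries. The alternatives without WT replicate 3, alone or with FL/FL replicate 1, and without BPtch replicates 3 and 4 were chosen after seeing the data. Promoter sequences are from RefSeq (GRCm38.p6).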

Additional observations from a re-analysis of the deposited data

Results flagged for a closer look

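In 62 groups of 5 values (31 genes in WT and FL/FL), 3 had a library far from the others, all WT replicate 3: C1qa at 16.62 CPM, Acsbg1 at 256.1 CPM and P2ry12 at 37.89 CPM. Chance flags about 1 in 20 groups.

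The FL/FL step differed between the normal and Wnt-model backgrounds, tested as an interaction, in 19 of the 31 genes followed here, against 2.72% of all genes tested. Most of these genes were followed because they differed between FL/FL and WT, and the interaction reuses those libraries. An excess among them is therefore built in. It was larger in the normal background, on the log2 scale, by 4.117 for Gpnmb, 3.529 for Cd109, 3.486 for Itgax, 1.958 for Fcgr3, 2.084 for Lgals3, 2.326 for Cd44, 1.622 for Cp, 1.979 for Osmr, 1.573 for Il1r1, 1.743 for C1qa and 2.105 for Aim2. It was also larger by 4.398 for Mybpc1, 3.788 for Plac9a and 1.692 for Tmem254b. The differences were -1.9 for Kit, -0.6159 for Dhcr7, -1.02 for Emp2, -1.112 for Grik3 and -0.9111 for Acsbg1.

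Between ages, with the same choice of genes and reuse of libraries, the step at P13 exceeded that at P5 by 2.198 for C4b, 2.469 for Gfap, 2.625 for Mybpc1 and 2.201 for Aim2. Over all genes tested, the step differed from P5 in 0.306% and from day 30 on in 0.297%. The step at P13 exceeded that from day 30 on by 1.353 for Pcp4, 3.194 for Plac9a and 1.692 for Tmem254b.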

How the results depend on the processing

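The number of genes called between FL/FL and WT (86) was 404 with DESeq2, 43 without the low-count filter, 12 in a fit of these 10 libraries alone, 316 in a fit of all 12 groups of P13, 175 with the listing run as a block and 0 with a Y-linked covariate (1205 at an unadjusted p under 0.05). It ran from 24 to 192 when 1 library was left out. DESeq2 called 111 genes against BD-FLPlus, 159 against BD-FLY, 1916 in the Shh-model and 83 in the Wnt-model background, 6 and 863 for the differences from the Shh-model and Wnt-model backgrounds, and 145 and 244 for those from P5 and from day 30 on. With 1 library left out, counts ran from 0 to 77 against BD-FLPlus, 8 to 130 against BD-FLY, 643 to 2467 in the Shh-model and 4 to 19 in the Wnt-model background, 1 to 7 and 177 to 1184 for the differences between backgrounds, and 38 to 150 and 6 to 306 for those between ages.

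Replicate numbers did not pair the libraries, and 1 library matched its own number best. With a replicate block the counts were 33 against WT, 0 against BD-FLPlus, 8 against BD-FLY and 34 for the difference from day 30 on.

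All 33 called genes followed through the alternatives kept their direction in each. In the Shh-model background 434 genes were called without BPtch replicates 3 and 4, whose titles give day 14. DESeq2 called 33 of the 33 followed genes, the fit without the filter 20, the block 18, the 10 libraries alone 3, and the fit without WT replicate 3 called 23. The 3 called in the 10 libraries alone were Itgax, Plac9a and Tmem254b. Gpnmb, Cd109, Fcgr2b, Angpt2, Pcp4 and Pla2g4e were not called there, although they were in every fit that left out 1 library. Itgax, Lcn2, Nlrc5 and Prl2c3 rest on few counts.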
